A study of Mus musculus with 7 samples.

Results

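Of 15347 HDAC1 peaks called in mouse limb buds, 430 were short distal peaks over exons, here called exonic peaks. They were chosen by position: each was shorter than 800 bp, stayed clear of every transcription start site, counting 2 kb before and 1 kb past it as its window, and covered at least 1 bp of an exon of a protein-coding transcript in the GENCODE M21 basic annotation of mm10. Exonic peaks made up 2.80% of all peaks and 12.2% (95% Wilson interval 11.2 to 13.3%) of the 3522 short distal peaks, beside 1546 intronic and 1546 intergenic short distal peaks. A further 352 distal peaks were 800 bp or longer and 11473 peaks touched a start site window.

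HDAC1 ChIP-seq was done on 4 samples, with 3 input samples of chromatin without antibody, from wild-type Swiss Webster embryos at E11.5 with 40 to 44 somites. Forelimb and hindlimb buds of 3 litters were pooled, so a region bound in few cells and a region bound weakly in many cells cannot be told apart. The authors pooled the samples in a single list of peak coordinates, whose columns are coordinates only, with no value for a single sample. Enrichment and significance values that the study lists for its peaks elsewhere were not used here. The depth behind a peak is thus unknown from the list, no value here has a replicate error, and the intervals below cover counting error over regions only, which are not biological replicates. Start site peaks were listed for 44.1% of all protein-coding genes. They were listed for 52 of 54 limb transcription factor genes, 70 of 74 chromatin regulators, 55 of 59 genes of the Fgf, Bmp and Wnt pathways, 11 of 22 cartilage and bone genes, 10 of 20 neural genes, 7 of 19 endothelial genes and 3 of 18 blood genes.

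HDAC1 removes acetyl groups from histone tails and works as the catalytic subunit of corepressor complexes such as Sin3, NuRD and CoREST. It is found by ChIP mostly at the promoters of active genes and at enhancers, where acetylation turns over. Exons carry protein sequence, and most of them are poor in CpG dinucleotides, since methylated CpG is lost over evolutionary time. CpG islands are the exceptions and usually sit at promoters, but some lie inside or at the 3′ end of genes, often in genes of developmental regulators.

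Among the 10 highest placed peaks over coding sequence, 9 had a CpG island-like composition (defined below), with Igf2r as the exception. To show what such sequence looks like, the 30 bases of coding sequence with the most CpG were read from GRCm38 (mm10) for the first 4 peaks over coding sequence with that composition and the first 2 without it. They are written 5′ to 3′ on the strand of the gene, with CpG in capitals.
Pop5 exon 3 (chr5:115238147-115238176, plus strand): CGagctggtgtcCGaggaCGCGCGctgcCG
Sarm1 exon 2 (chr11:78490882-78490911, minus strand): CGCGcCGcCGagtggctcttccCGctCGct
Nkx2-5 exon 2 (chr17:26839333-26839362, minus strand): CGcCGcCGcCGccCGCGCGcaggatCGCGg
Rasip1 exon 3 (chr7:45628811-45628840, plus strand): CGctaCGggctgaCGggCGgcCGCGgagCG
Igf2r exon 10 (chr17:12725315-12725344, minus strand): tcataaactttgagtgcaacaaaactgcag
Lrig1 exon 5 (chr6:94628018-94628047, minus strand): CGCGgtcactgctgactctcCGtctgagca
The Pop5 and Sarm1 stretches held 6 CpG each, the Nkx2-5 stretch 9 and the Rasip1 stretch 7. The Lrig1 exon had no more than 3 in any 30 bases, and the stretch shown for Igf2r had none.

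Coding sequence was the main target. Of the 430 exonic peaks, 350 (81.4%, interval 77.4 to 84.8%) covered coding sequence in at least 1 transcript and 139 (32.3%, 28.1 to 36.9%) covered 3′ untranslated sequence. Split without overlap, 264 peaks covered coding sequence only, 74 covered 3′ untranslated sequence only, 65 covered both, 21 covered coding and 5′ untranslated sequence and 6 covered 5′ untranslated sequence only. The midpoint lay in an exon for 335 peaks (77.9%), and 220 (51.2%) lay wholly inside exons. In contrast, 58 held a whole exon with flanking intron, and 6 had 10 bp or less of exon.

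Per length of sequence, short distal peaks were densest over coding and 5′ untranslated exons. Outside the start site windows there were 8.45 peak midpoints per Mb of coding sequence (95% Poisson interval 7.43 to 9.58, 246 peaks), 2.77 per Mb of 3′ untranslated sequence (2.203 to 3.438, 82 peaks), 1.80 per Mb of intron (1.71 to 1.89) and 1.03 per Mb between genes (0.981 to 1.08). Coding sequence thus had 4.71-fold the density of introns and 3.05-fold that of 3′ untranslated sequence, and the intervals of these classes did not overlap. For 3′ untranslated sequence the density was 1.54-fold that of introns. The 5′ untranslated value of 11.3 per Mb rested on 7 midpoints in 0.620 Mb and its interval (4.54 to 23.3) included the coding value. Assigned by any overlap, however, it was 45.2 per Mb (30.02 to 65.3), above the coding value of 12.03 (10.8 to 13.4). A wider annotation, described below, put 12 of the 21 coding and 5′ untranslated peaks at a start site. It did so for 4 of the 6 over 5′ untranslated sequence only. By any overlap 3′ untranslated sequence had 4.70 per Mb. The intron value of 1.71 beside it counted only peaks in genes that touched no exon, so it was not counted in the same way. A window of 350 bp, the median length of the exonic peaks, touched a protein-coding exon at 4.56% of all distal positions and at 11.7% of those in protein-coding genes, against 12.2% of the short distal peaks and 21.8% of those in genes.

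**Figure D1:**
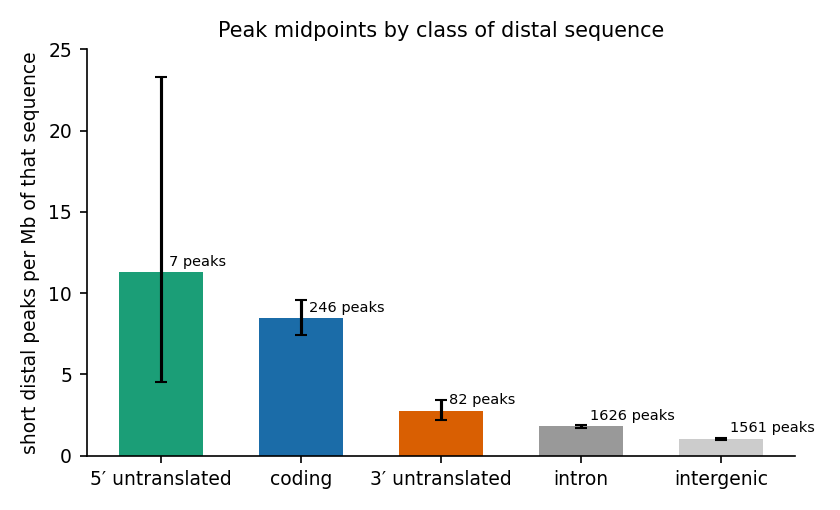
Short distal HDAC1 peaks per Mb of each class of sequence outside the start site windows, each peak assigned by its midpoint. Bars show the density, lines the 95% Poisson interval and labels the number of peaks; coding sequence stood at 8.45 per Mb, 3′ untranslated sequence at 2.77 and introns at 1.80.

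Peaks over coding and 3′ untranslated exons differed in base composition. Median GC content was 62.8% for coding-only peaks and 52.3% for 3′ untranslated-only peaks, and the median ratio of observed to expected CpG (CpG o/e) was 0.70 and 0.32. A peak was called CpG island-like here when its GC content was at least 50% and its CpG o/e at least 0.6. This held for 155 of 264 coding-only peaks (58.7%) and for 11 of 74 3′ untranslated-only peaks (14.9%), a difference of 43.8 percentage points (95% Newcombe interval 32.3 to 52.4). The composition of all distal coding and of all distal 3′ untranslated sequence was not measured, so the part of sequence class in this difference was not tested. Peaks that covered both had the highest share, at 48 of 65 (73.8%). GC content ran from 32.3% in a peak in the last exon of Sox9, the chondrocyte regulator, to 81.0% in a peak in the first exon of the kinase gene Tesk1 and another in the last exon of Adra2a, an adrenergic receptor gene. The highest CpG o/e, 1.36, was at the end of Cacna1a, which encodes a neuronal calcium channel subunit.

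**Figure D2:**
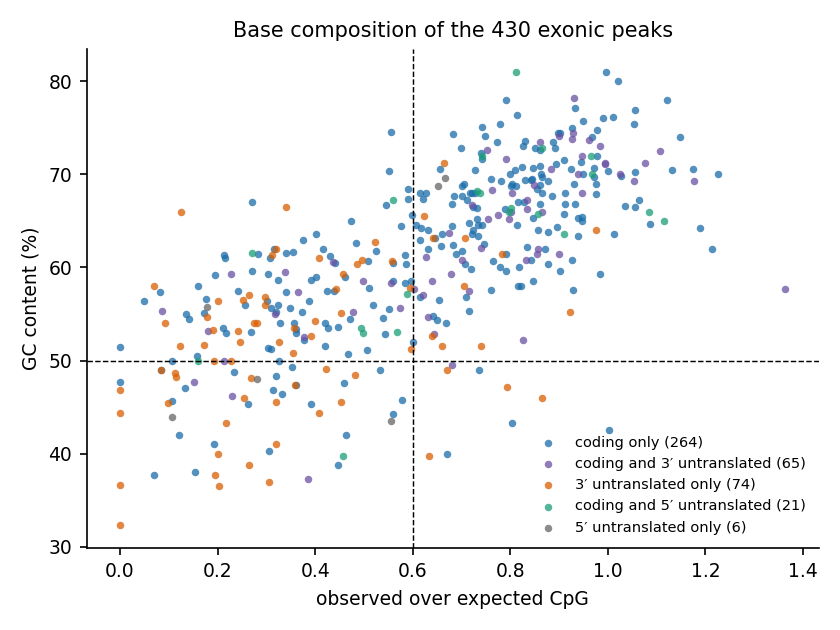
GC content (percent) against observed over expected CpG of each exonic peak, coloured by the sequence it covered. The dashed lines mark the limits of 50% and 0.6; 58.7% of coding-only peaks but 14.9% of 3′ untranslated-only peaks lay above both.

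As a group, exonic peaks were closer to start site peaks in composition than other short distal peaks were. Their median GC content was 61.3%, against 50.1% for intronic, 50.7% for intergenic and 65.1% for start site peaks. Island-like composition was found in 229 (53.3%) of them, in 10.8% of intronic peaks (difference 42.5 points, 37.5 to 47.3), in 17.2% of intergenic peaks and in 82.4% of start site peaks. No repeat-masked base was present in 49.8% of exonic peaks, against 33.9% of intronic and 35.2% of intergenic peaks.

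Exons as such are not rich in CpG, so the peaks were also set against the exons available to them. Exons of protein-coding transcripts were merged into blocks. A block that touched a start site window was left out whole, even if it held an exonic peak. Of the remaining 169538 blocks, 348 (0.205%) held part of an exonic peak, and 345 of the 166920 blocks with coding sequence did (0.207%). Among coding blocks of at least 100 bp, 1.46% of the 10526 island-like blocks held an exonic peak, against 0.144% of the 108019 others. The share rose over bins of CpG o/e, from 0.053% of blocks below 0.2 to 0.677% between 0.6 and 0.8 and 2.32% at 1 or above. In midpoints per Mb, island-like coding blocks had 60.8 (95% Poisson interval 50.7 to 72.3) and the others 2.84 (2.37 to 3.37), a 21.4-fold ratio. Coding blocks kept the untranslated sequence merged with them. The blocks outside the island-like set covered 46.2 Mb, beside 29.1 Mb of coding sequence outside the start site windows. The ratio thus mixes base composition with class of sequence, and these were not told apart. The list gives no read depth over these exons in ChIP or input, so the part of base composition in which exons could be called was not tested.

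Length of the exon went with the peaks as well. Coding blocks that held part of an exonic peak had a median length of 692 bp, against 131 bp for all distal coding blocks. The exon with the largest overlap, taken for all 430 exonic peaks and so including exons that touched a start site window, had a median of 1081 bp. Of 152 island-like coding blocks of 1000 bp or more, 53 (34.9%, 27.8 to 42.7%) held an exonic peak, against 87 of 10392 others of that length (0.837%, 0.679 to 1.03%). Among blocks of 100 bp or more but under 200 bp the shares were 0.446% of island-like blocks and 0.0527% of others. The share was higher in the island-like blocks in each of the 4 length classes, with intervals that did not overlap. Longer blocks also offer more bases for a peak to fall on. Coding blocks here included their untranslated parts, as above, and coding bases alone were not counted.

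**Figure D3:**
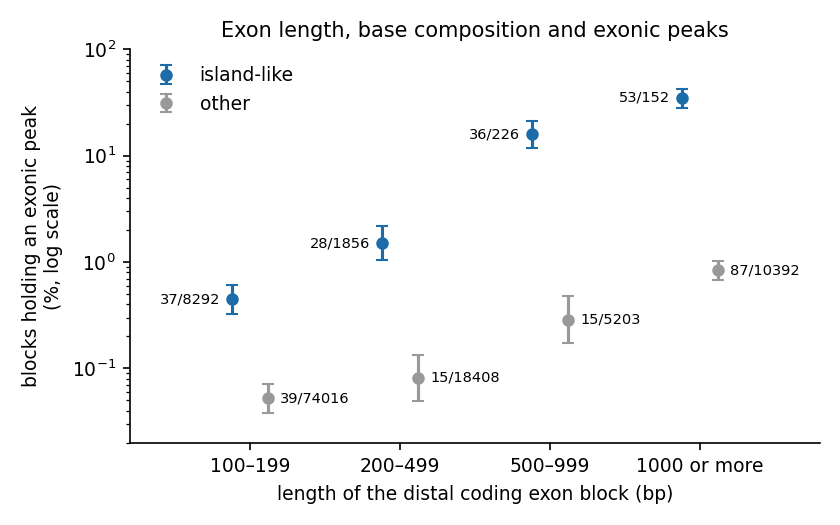
Percent of distal coding exon blocks that held part of an exonic peak (log scale) by block length in bp, for island-like blocks (GC at least 50%, CpG o/e at least 0.6) and others. Blocks include the untranslated sequence merged with their coding part. Points show the share with its 95% Wilson interval and labels the counts; at 1000 bp or more the shares were 34.9% and 0.837%.

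Many exonic peaks lay in last exons. By the largest overlap, 211 peaks lay in the last exon of a transcript, 178 in an internal exon, 23 in the exon of a single-exon transcript and 18 in a first exon. Any overlap with a last exon was found for 239 peaks (55.6%, 50.9 to 60.2%). Blocks that included a last exon held an exonic peak in 0.896% of 18406 cases, against 0.121% of the 151132 blocks without one. This contrast counted blocks and not bases. Outside the start site windows, 3′ untranslated sequence covered 29.6 Mb and coding sequence 29.1 Mb. The share of exon bases in last exons was not measured, so an excess of peaks there per base was not shown. Blocks with a last exon can be longer than others, and last exons under the peaks were long, with a median of 1823 bp, whereas the internal exons had a median of 194.5 bp. Median CpG o/e was 0.68 in last-exon peaks and 0.63 in internal-exon peaks, and 121 of 211 and 89 of 178 were island-like.

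All 74 peaks over 3′ untranslated sequence only touched a last exon, as did 62 of the 65 that covered coding and 3′ untranslated sequence. Of the coding-only peaks, 98 of 264 (37.1%) did so. Midpoints lay at a median of 71.2% of the length of the host gene, measured from its 5′ end, at 59.4% for coding-only peaks and at 93.2% for 3′ untranslated-only peaks. The latter had a median distance of 811 bp to the end of the gene. By exon number, 113 peaks lay in exon 2 and 67 in exon 10 or later, while the start site windows leave out most first exons beforehand. The highest number was exon 55 of 146 in Syne1, which encodes a nuclear envelope spectrin-repeat protein, under a 150 bp peak at place 12784 of the list.

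**Figure D4:**
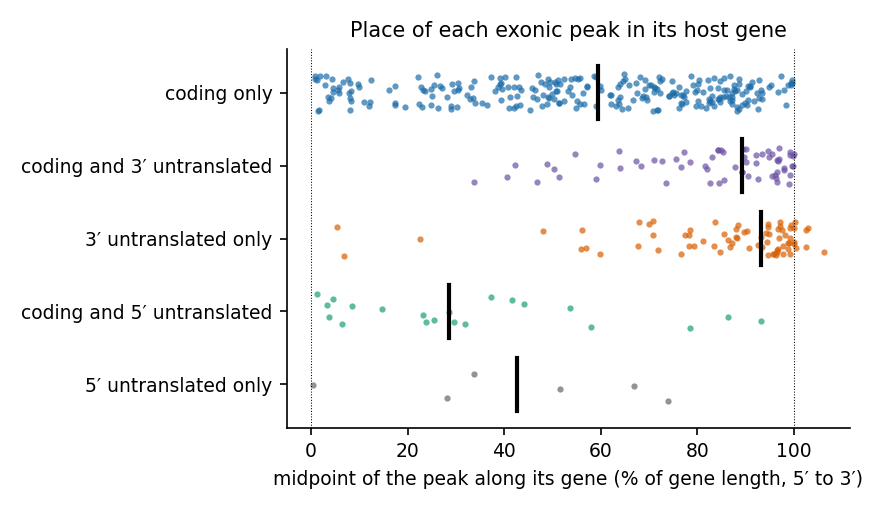
Midpoint of each exonic peak along its host gene (percent of gene length, 5′ to 3′), by the sequence covered; points are peaks, jittered vertically, and black lines are medians. Peaks over 3′ untranslated sequence only gathered near the gene end (median 93.2%), while coding-only peaks spread over the whole gene (median 59.4%).

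Most exonic peaks stood low in the authors' list, whose order was taken as their ranking. Their places ran from 652 to 15344, with a median of 10766 (95% interval of the median 10174 to 11221), close to the 10800 of intronic and 10865 of intergenic short distal peaks. In the first part of the list, up to place 7673, lay 108 of them (25.1%), against 23.3% of intronic peaks, a difference of 1.83 points with an interval from -2.60 to 6.60. In 4 successive stretches of about 3836 places, the list held 21, 87, 143 and 179 exonic peaks. Their share of the short distal peaks barely moved over these stretches, at 12.3%, 13.6%, 12.2% and 11.6%. In the same order the median length went from 600 to 450, 300 and 250 bp, and the island-like share from 81.0% to 70.1%, 49.7% and 44.7%.

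Classes differed in place too. In the first 7673 places lay 38.5% of peaks that covered coding and 3′ untranslated sequence (27.6 to 50.6%), 22.3% of coding-only peaks (17.7 to 27.7%) and 18.9% of 3′ untranslated-only peaks (11.6 to 29.3%). The share was 42.9% of peaks over coding and 5′ untranslated sequence (9 of 21, 24.5 to 63.5%), and 1 of the 6 over 5′ untranslated sequence only. Island-like peaks had a median place of 9879 and a median length of 400 bp, and the others 11313 and 250 bp.

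**Figure D5:**
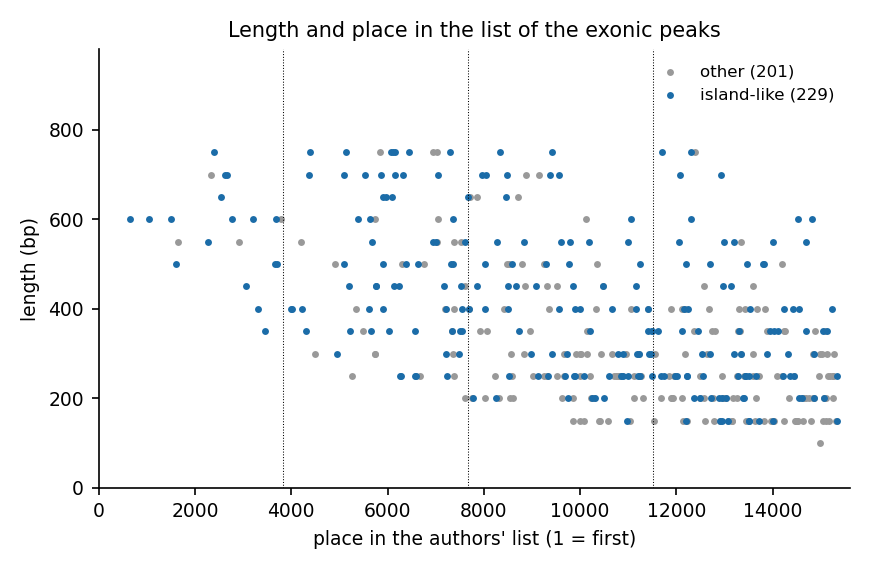
Length (bp) of each exonic peak against its place in the authors' list, with island-like peaks in blue and others in grey; dotted lines split the list into 4 parts. The 21 peaks of the first part had a median length of 600 bp and the 179 of the last part 250 bp.

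The length limit of 800 bp fell inside the distribution. Of the exonic peaks 16 were 750 bp long, the first of them at Trim14 (place 2386), and 99 further distal peaks over exons were 800 bp or longer, 15 of them exactly 800 bp. The nearest start site to any exonic peak was 1012 bp away, at Rasip1. The smallest overlap was 1 bp, at an exon of the zinc finger gene Zfp608, followed by 3 bp at Nln and 4 bp at Sv2c and Dupd1. On the other side, 4 intronic peaks ended within 10 bp of an exon and 10 short exonic peaks were left out for 1 to 50 bp in a start site window.

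The highest placed coding-only peaks lay in genes of varied function. Sarm1, a NAD-cleaving enzyme of axon degeneration, had a 600 bp peak at place 1039 over exon 2 (chr11:78490750-78491349), with 436 bp of coding sequence, 63.3% GC and 56 CpG. Rasip1, which is needed for the lumen of blood vessels, had a 500 bp peak at place 1597 wholly inside exon 3 of 12 (chr7:45628500-45628999), with 75.4% GC and CpG o/e of 1.05. The next listed peak was 57900 bp away, and no start site of Rasip1 had one. A peak at place 1652 over exon 10 of Igf2r (chr17:12725250-12725799), the imprinted receptor that clears insulin-like growth factor 2, differed from these. It covered 104 bp of exon in 550 bp, and had 47.1% GC and a CpG o/e of 0.13.

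Further down were Rtn4rl2, a Nogo receptor family member, at place 2263 and Bbc3, which encodes the cell death protein PUMA, at 2533. Then came Atg9b, an autophagy gene, at 2626, Lrig1, a feedback inhibitor of growth factor receptors, at 2911, Fbrsl1 at 3056, Prdm2, a PR domain zinc finger gene, at 3201 and Skor1, a corepressor of the SKI family, at 3310. Island-like composition was present in 8 of the first 10 coding-only peaks, with Igf2r and Lrig1 as the exceptions. The Rtn4rl2 peak lay wholly in the last exon with 76.2% GC and 80 CpG in 550 bp. In the Fbrsl1 peak, all 450 bp were last-exon coding sequence with 76.0% GC.

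Where coding and 5′ untranslated sequence were covered together, the first peak was also the first exonic peak of the whole list. It lay at place 652 over exon 3 of Pop5, a subunit of the RNase P and RNase MRP ribonucleoproteins (chr5:115237950-115238549). It had 70 CpG in 600 bp, 66.0% GC and a CpG o/e of 1.08, no start site of Pop5 in the basic annotation had a peak, and the next peak was 33550 bp away. Next in this class were Msra (place 3704), a methionine sulfoxide reductase gene, Gata6 (3998), a zinc finger transcription factor gene, and Tesk1 (4229), a kinase gene. Gata2 (5226), also of the GATA family, Bmp2 (5390), a bone morphogenetic protein gene, Msl3l2 (6122), Bmpr2 (7028), a receptor gene for such ligands, a further peak of Bbc3 (7371) and Sp8 (7852), a gene of limb outgrowth, completed the first 10.

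Peaks over both coding and 3′ untranslated sequence, 10 of which covered bases that are coding in 1 transcript and untranslated in another, began with Nkx2-5, the homeobox gene of the heart field. Its 600 bp peak at place 1493 (chr17:26839000-26839599) lay wholly in the last exon, with 575 bp of coding sequence, 70.0% GC and a CpG o/e of 1.02, and the next peak was 77150 bp away. Trim14 (2386), a gene of antiviral signalling, Cyp26c1 (2662), which degrades retinoic acid, and Scarf2 (2769), a scavenger receptor gene, followed, then Scrt2 (3662), a repressor of the Snail superfamily, Gadd45g (3677), a stress response gene, and Dlx5 (3785). Actn1 (4024), an actinin gene, Lrfn1 (4387) and Grm4 (4916), a glutamate receptor gene, completed the first 10. Of the 10 in this class 8 were island-like, with Dlx5 (49.5% GC) and Grm4 (CpG o/e 0.32) outside the limits.

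The 3′ untranslated peaks looked different. The first was a 700 bp peak at place 2324 in the last exon of H13, which encodes signal peptide peptidase (chr2:152707200-152707899), with 62.7% GC and a CpG o/e of 0.52. Next came Hoxd8 at place 4500 and Irf2bp2 at 5337. Nr2f2, which encodes the nuclear receptor COUP-TFII, had a pair of peaks at 5744 and 5851 that were separated by 50 bp in an exon of 2988 bp. GC content was 47.3% at Hoxd8, 37.0% at Irf2bp2 and 43.3% and 36.5% at Nr2f2. Rxfp3 (5736), a relaxin family receptor gene, Cdc6 (5742), a DNA replication licensing gene, and Foxo4 (7037), a forkhead gene, had 52.0%, 52.0% and 56.4%. Of the first 10 peaks of this class, Cbx8, which encodes a Polycomb chromodomain protein, at 6082 and Ctdsp1 at 6238 were island-like.

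Of the 6 peaks over 5′ untranslated sequence only, 1810010D01Rik (6600) and Hoxa3 (7710) came first, followed by Rab3il1, Hoxc9, Fam19a2 and Smim8. The overlap with exon was small in most of them, from 8 bp at Hoxc9 to 250 bp at 1810010D01Rik. Of these peaks, 4 touched a start site window of the comprehensive GENCODE M21 annotation, which lists more transcripts than the basic set.

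That wider annotation placed 106 of the 430 peaks (24.7%, 20.8 to 28.9%) at a start site. The share was highest among peaks with 5′ untranslated sequence, at 57.1% of those that also covered coding sequence (12 of 21) and 4 of the 6 others. It was 29.9% of coding-only peaks and 41.0% of peaks in internal exons, but 4.05% of 3′ untranslated-only peaks and 11.8% of last-exon peaks. Pop5, Atg9b, Msra, Tesk1, Gata2, Gata6, Msl3l2, both Bbc3 peaks and the Sp8 peak at 7852 were among the 106, while Sarm1, Rasip1, Igf2r and Nkx2-5 were not.

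A total of 367 genes had an exonic peak over one of their exons, 1.68% of 21851 protein-coding genes. Of these, 226 (61.6%) also had a peak at a start site, against 44.1% of all protein-coding genes and 73.6% of the 947 genes with an intronic but no exonic short distal peak. The difference from the latter was -12.02 points (-17.8 to -6.39). Within the first 7673 places, counting start site peaks in those places only, the shares were 45.7% of 105 host genes (36.5 to 55.2%) and 30.02% of all protein-coding genes. Among the peaks themselves, a start site peak in the host gene was present for 59 of 74 3′ untranslated-only peaks (79.7%) and for 151 of 264 coding-only peaks (57.2%). It was present for 124 of 229 island-like peaks (54.1%, 47.7 to 60.5%) and for 139 of the 201 others (69.2%, 62.5 to 75.1%). Thus 105 island-like exonic peaks lay in genes whose start sites in the basic annotation had no listed peak, Rasip1, Nkx2-5 and Trim14 among them. The exonic peaks of Rasip1 and Nkx2-5 were themselves 1012 and 1966 bp from a start site of their own gene, past the 1 kb limit of the window. Pop5 and Atg9b were also counted among the 105, although their exonic peaks touched a start site window of the comprehensive annotation. So did 62 of the 229 island-like peaks (27.1%).

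Exonic peaks were close to other peaks and to start sites more often than other short distal peaks were. Another peak lay within 1000 bp of 195 of them (45.3%), against 37.3% of intronic (difference 8.03 points, 2.78 to 13.3) and 26.1% of intergenic peaks. In those 195 cases the nearest peak was itself exonic in 89, at a start site in 60, and intronic or a longer distal peak in 22 each. A start site lay within 5 kb of 61.9% of exonic and 35.3% of intronic peaks. Of the 430, 150 had no other peak within 10000 bp.

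In 58 genes there were at least 2 exonic peaks, and 8 genes had 3 or more: Skor1 and Tbx2 with 4 each, and Cacna1a, Osr1, Scarf2, Soga3, Sp8 and Sptbn4 with 3 each. The 4 peaks of Skor1 were all island-like and coding, at places 3310 and 8483 in exon 2, 13341 in exon 3 and 7040 in exon 4. Those of Soga3 were also all island-like and coding, at 8017 and 8525 in exon 2 and at 13828 in exon 3. All 3 touched a start site window of the comprehensive annotation. Sptbn4, a spectrin gene, had peaks at 5537 and 11953 over exon 16, separated by 100 bp, and at 14792 over exon 24. In Cacna1a, peaks at 7233 and 9725 shared the last exon and a peak at 12996 covered exon 46. All 3 touched a window of that wider annotation too, and GC content was 80.0%, 57.7% and 67.6%. Peaks of a gene that close share their surroundings and are not independent.

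Developmental transcription factor genes were frequent hosts. Exonic peaks were found in 9 of 54 limb transcription factor genes (16.7%), beside 1.68% of all protein-coding genes. These 9 genes held 19 peaks, 11 over coding sequence and 7 over 3′ untranslated sequence only, at a median place of 10125 beside 10766 for all exonic peaks, and 18 of the 19 had another peak within 1000 bp. Of the 19, 6 were island-like. The list was chosen with earlier results of these data known, so its count is a description.

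Tbx2, a T-box repressor of limb patterning, had coding peaks at places 6304 (exon 3) and 11978 (exon 7, the last) and 3′ untranslated peaks at 7688 and 13647 in the same last exon. In Osr1, an early mesenchymal regulator, the peaks at 7530 and 13583 over exon 2 were 50 bp apart, and another at 13808 lay over 3′ untranslated sequence. Sp8, expressed in the apical ectodermal ridge, had peaks at 4378 and 7852 over coding and at 8425 over 3′ untranslated sequence, all in its last exon of 4198 bp. No start site of Sp8 in the basic annotation had a peak, but the peak at 7852 touched a start site window of the comprehensive annotation. GC content fell from 70.7% at place 4378 to 39.8% at place 8425. Tbx3, the sister gene of Tbx2, had a 600 bp peak at 10125 over exon 8, and En1, which marks ventral ectoderm, a 400 bp peak at 9563 in exon 1.

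In the HoxD cluster, which patterns the digits, the peaks of Hoxd12 (places 10712 and 14954), Hoxd13 (10654) and Hoxd8 (4500) all lay in 3′ untranslated sequence, with GC content between 37.7% and 47.3%. The Hoxd12 peak at 10712 touched a start site window of the comprehensive annotation. Hoxc9 had a coding peak of 70.2% GC and CpG o/e of 1.06 at 6634 in exon 2. Dlx5, a homeobox gene of the ridge and skeleton, had peaks at 3785 over exon 2 and 12626 over exon 3. Some bases of these Dlx5 peaks are coding in one transcript and 3′ untranslated in another, 20 of the 185 exonic bases at 3785.

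Exonic peaks were also found in signalling and chromatin genes. Among genes of the Fgf, Bmp and Wnt pathways, 4 of 59 (6.78%) had one: Bmp2 and Bmpr2 as given above and the Wnt receptors Fzd1 (11222) and Fzd7 (14827), both over the 3′ untranslated part of a single long exon. Chromatin regulators had 4 of 74 (5.41%), with Cbx8 in 3′ untranslated sequence and Arid2, Setd1b and Tet3 in early coding exons at 12498, 10429 and 12949. Hosts among the cartilage genes were Gdf6, at 10300 in coding sequence, and Sox9, at 12178 in 3′ untranslated sequence. Myod1, the muscle determination gene, had a coding peak at 6563 and a 3′ untranslated peak at 14841. Isl2 and Pou4f1 were hosts among 20 neural genes, Klf1 among 18 blood genes, and none of 19 endothelial genes had an exonic peak.

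Grouped by gene symbol, a grouping made after the hosts were seen, homeobox genes stood out by number. Exonic peaks lay in 8 of 39 HOX genes (20.5%) and 27 of 144 other homeobox genes (18.8%), among them Nkx2-5, Dlx1, Dlx2, Irx1, Irx2 and Nkx3-2. T-box genes had 4 of 17, GATA genes 2 of 7, forkhead genes 5 of 44 and nuclear receptor genes 4 of 48. The 32 peaks of the other homeobox genes were mostly coding (26) and island-like (22), while 5 of the 12 HOX peaks were 3′ untranslated only and 4 were island-like. Against 1.68% of all protein-coding genes, the share was 2.27% of C2H2 zinc finger genes (11 of 484) and 1.79% of clustered protocadherins (1 of 56). It was 1.02% of clustered histone genes (1 of 98), and none of 1133 olfactory receptor genes had an exonic peak. Exons inside a start site window could not count under the rule, and the exon length of each family outside the windows was not measured. Start site peaks were listed for 67 of the 98 clustered histone genes and 1 of the 1133 olfactory receptor genes.

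Short sequence motifs were counted in the central 300 bp of each peak on both strands, for 16 motifs fixed as plain letter strings. The GC-rich motif of SP and KLF factors, GGGCGG, was present in 161 of 430 exonic windows (37.4%, 33.0 to 42.1%), against 16.8% of intronic and 19.0% of intergenic windows. It was in the central 300 bp of 6.60% of 21091 distal coding exon blocks of at least 300 bp. Such a centre could be untranslated sequence. Among island-like exonic peaks the share was 53.7%, and among island-like coding blocks 30.2%. Motifs rich in A and T were rarer in exonic than in intronic windows: TAATTA, bound by homeodomains, in 3.26% against 10.03%, and ACAATGG, bound by SOX factors, in 0.930% against 3.88%. A letter match is not evidence of binding, and base composition differed between these sets of windows, so its part in the shares was not tested.

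The GLI motif GACCACCCA, searched because the study is about GLI repressors, was in 1 of 430 exonic windows (0.233%), 0.259% of intronic windows and 0.284% of the centres of distal coding blocks. In whole peaks it lay in coding sequence in those of Cacna1a and Adcy8, and the coding stretches around it are shown with the motif in capitals.
Cacna1a exon 46 (chr8:84638624-84638653, plus strand): atctgagcatGACCACCCAatcgggtgacc
Adcy8 exon 1 (chr15:64920335-64920364, minus strand): tgggtggctatGACCACCCAgattctggca
The CTCF core motif (CCA, AG and GGC, each separated by 2 free bases) was in 2.33% of exonic and 2.07% of intronic windows and 2.01% of coding block centres. The 3 highest placed coding peaks with a match under the conditions given for GLI were the following, with the motif, on either strand, in capitals.
Rasip1 exon 3 (chr7:45628950-45628979, plus strand): acgcggagcGCCCTCTGCTGGtgcaggacc
AI464131 exon 2 (chr4:41498807-41498836, minus strand): tcttacaagCCACCAGCTGGCcgtactgcc
Prrt4 exon 5 (chr6:29171074-29171103, minus strand): ggctggcttGCCTGCTCCTGGcccgaccgc
The AP-1 motif TGANTCA was in 3.95% of exonic windows, against 6.27% of intronic windows and 7.60% of coding block centres. Under the same conditions, the first 3 coding matches were in these peaks.
AI464131 exon 2 (chr4:41498895-41498924, minus strand): catcaaagtcaaTGATTCAgtgcccttcca
En1 exon 1 (chr1:120603840-120603869, plus strand): gtggtcaagacTGACTCAcagcaaccccta
Myo18b exon 30 (chr5:112791118-112791147, minus strand): tcagggagaaagTGAGTCAggagaacaatg
The Rasip1 peak thus held a CTCF core match and the run of 7 CpG shown above, and the AI464131 peak at place 5096 held both a CTCF core and an AP-1 match. The cyclic AMP response element TGACGTCA was in 1 exonic window.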

How the data were processed

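HDAC1 ChIP-seq was deposited as 1 list of peak coordinates for 4 ChIP and 3 input samples. The authors called the peaks with CisGenome on the pooled samples, and Bowtie2 2.2.5 and mm10 are named in the submitters' processing notes. The deposited columns are chromosome, start and end, so the values are positions and not a signal or count. Libraries were amplified by PCR, which can favour fragments by base composition, and the list keeps no trace of it.

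Coordinates were read as 1-based with both ends included. GENCODE M21 basic gave start sites, exons and coding and untranslated parts, and GRCm38 sequence came from RefSeq. As a check of the build, 98.8% of 45065 coding transcripts began with ATG. A peak could be coding in 1 transcript and untranslated in another. Overlap in bases matched a base-by-base count in 2000 of 2000 simulated intervals. Shares have 95% Wilson intervals, differences Newcombe intervals and densities exact Poisson intervals. No test was run, since regions are not replicates. The members and gene lists were chosen with earlier results of these data known, and the symbol families after the hosts were seen. Named were the 10 highest placed peaks of each class, genes with 3 or more peaks, hosts in the gene lists and peaks at the limits of the rule; others were chosen after their values were seen. Some genes of these lists are not reported here. Alternatives were other start site windows, overlaps, lengths and list parts. Python 3.11.15, pandas 2.3.3, scipy 1.17.1 and pysam 0.24.0 were used.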

Additional observations from a re-analysis of the deposited data

How the results depend on the processing

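No paired analysis was possible because the list holds no value for a single sample, and no replicate could be left out. Of 96 values recomputed under 12 alternatives, 69 stayed within 1.5 times (counts) or the 95% interval of the value reported. With 5 kb on both sides of a start site 164 exonic peaks remained. With at least 50% of the peak in exon, 3′ untranslated sequence was covered by 39.3% of peaks, a last exon by 67.2%, 60.7% were island-like and median GC was 62.9%. With the midpoint in exon these were 37.6%, 64.8%, 60.6% and 62.4%. Without a length limit the median length was 400 bp and the median place 9673. Below 500 bp they were 250 bp and 11517.5, with 46.2% island-like. The first 7673 places gave 108 peaks, 86.1% over coding sequence, 72.2% island-like, a median length of 500 bp, a median place of 5910.5, a median GC of 65.8%, and a start site peak from the same places in 45.7% of host genes (62.9% with start site peaks of the whole list, an alternative added after seeing the data). Assigned by any overlap, density per Mb was 12.03 in coding, 4.70 in 3′ untranslated and 45.2 in 5′ untranslated sequence. For introns it was 1.71, counting only peaks that touched no exon. As alternatives chosen after seeing the data, start sites of the comprehensive annotation gave 39.5% over 3′ untranslated sequence and 65.4% over a last exon, and coordinates counted from 0 gave 429 peaks. The classes of gene and composition rest on peaks that passed the authors' threshold, and weaker binding below it is not in the list, whose depth is unknown.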

Other observations

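Exonic peaks were found on 20 chromosomes, from 8 on the X chromosome to 40 on chromosome 2. Their share of the short distal peaks was 18.9% on chromosome 7 and 18.7% on chromosome 15, against 12.2% over all chromosomes and 7.93% on chromosome 18, 8.57% on chromosome 6 and 8.65% on chromosome 8. Snai1, a repressor of epithelial genes, had 3′ untranslated peaks at places 9519 and 15257, Egr2, a zinc finger gene of the hindbrain, a coding peak at 10750 and a 3′ untranslated peak at 15176, and Tfap2b, which acts in neural crest and limb, an island-like coding peak at 5207 over exon 2 and a 3′ untranslated peak at 10006. Scx, the tendon progenitor gene, had a 500 bp peak at 8795 over the end of its coding sequence with 57.4% GC. The Irx1 peak at 14107 was island-like and 328400 bp from the next peak, and the Lhx8 peak at 10234 was 144600 bp from the next. Both of them, and the Tfap2b peak at 5207, touched a start site window of the comprehensive annotation. These genes were chosen after their values were seen.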
